A study of Rattus norvegicus with 12 samples.

Results

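The genes described here are the 142 whose transcripts were more abundant in each of the 6 Cpeb4 precipitates than in any of the 6 input libraries. They were chosen by measured values: the lowest precipitate had to exceed the highest input, the mean over the 6 precipitates (IP) had to be at least 2 times the mean over the 6 inputs, and the mean IP level had to be at least 10 CPM (a gene's count scaled to a fixed library size, here after TMM normalisation for library composition). They are 142 of 10491 genes with enough counts to be tested, out of 32883 listed. All 142 passed the filter on low counts. Because the IP and input values selected these genes, every IP against input value below is a description with no test. The rule did not use the treatment labels, so the response to treatment within the inputs or within the precipitates was tested. The rule can still leave out genes with a large response, since every precipitate had to exceed every input.

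The cells were neonatal cardiomyocytes from the ventricles of Wistar rats, labelled as 2 days old, with no genetic change named in the labels. They were either mock treated or exposed for 24 h to phenylephrine (PE). RNA was taken from the whole lysate (input) or after immunoprecipitation with an antibody to Cpeb4 (IP), which gave 4 groups of 3 libraries: input mock, input PE, IP mock and IP PE. All 12 libraries were made with a kit that reads the 3′ ends of transcripts. Nothing in the labels ties the replicates of a group to different cultures or animals. The p-values therefore rest on library-to-library spread, which may be technical. A precipitate made without the Cpeb4 antibody was not analysed here, so RNA held by the antibody's target and RNA held by the beads cannot be told apart.

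Cpeb4 belongs to the cytoplasmic polyadenylation element binding proteins. These proteins bind uridine-rich elements in the 3′ untranslated regions of messenger RNAs and change the length of the poly(A) tail, which can raise or hold back translation. RNA immunoprecipitation recovers RNA bound directly by a protein together with RNA carried in the same complexes. The identifiers in the deposited table are Ensembl gene IDs without symbols, and 0 of the 32883 could be matched to a symbol in the reference used here. The genes are therefore described by ID or by rank, their functions and sequences are not given, and markers of cardiomyocytes or of other heart cells were not checked.

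Total counts per library ranged from 1423334 to 30216559, and 8455 to 11822 genes had at least 1 count. The TMM factors were 0.489 to 0.959 in the inputs and 1.40 to 1.59 in the precipitates, so the scaling itself differed between the kinds of library. One library stood apart: in IP mock replicate 2, 7.18% of the 5865 genes with a mean of at least 10 CPM had a count of 0, against 0.0171% to 0.563% in the other precipitates. Among inputs, mock replicate 2 and PE replicate 1 had 3.60% and 3.53% of these genes at 0. Some of the results are given with and without the inputs and precipitates numbered mock 2 and PE 1. That also leaves out IP PE replicate 1, which had 0.392% of these genes at 0 and the largest total, 30216559. Within each group, no pair of libraries agreed within sampling noise.

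The 142 genes together held 0.165% to 0.332% of all counts in the inputs and 1.16% to 1.99% in the precipitates. Their summed level was 3313 ± 174 CPM in input mock, 3396 ± 79.9 in input PE, 10170 ± 2914 in IP mock and 11217 ± 2487 in IP PE (SD, n = 3 each). The median gene of the set lay between 10.2 and 12.1 CPM in each input and between 36.2 and 51.6 CPM in each precipitate. The libraries of the 2 kinds do not overlap in any of these summaries, which the selection fixes.

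**Figure D1:**
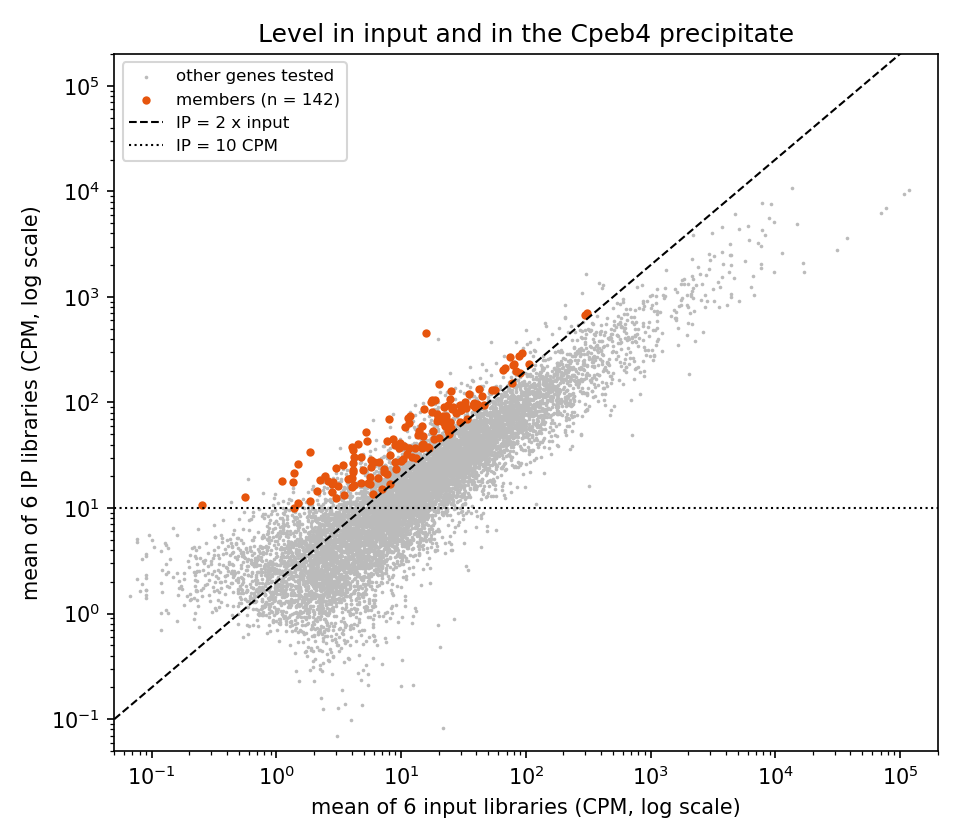
Mean level over the 6 inputs (x axis, CPM, log scale) against mean level over the 6 precipitates (y axis, CPM, log scale) for each tested gene with both means above 0; the 142 selected genes are in orange and the lines mark a ratio of 2 and an IP level of 10 CPM. The selected genes lie at ratios of 2.01 to 42.4, while the median ratio over all tested genes was 1.12.

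The ratio of mean IP to mean input ran from 2.01 to 42.4, with a median of 3.59 and quartiles of 2.71 and 5.57. It was at least 5 for 45 genes, at least 10 for 9 and at least 20 for 3. Mean IP levels ran from 10.02 to 708.6 CPM with a median of 43.0, and mean input levels from 0.251 to 311.6 CPM with a median of 12.1. Above the required 10 CPM, the set held 29 of the 1810 tested genes at 10 to 20 CPM in the precipitates, 48 of 2116 at 20 to 50 CPM, 39 of 1045 at 50 to 100 CPM, 15 of 549 at 100 to 200 CPM and 11 of 465 at 200 CPM or more. The ratios depend on the scaling. With library totals in place of TMM the median ratio was 7.85, since the TMM factors of the precipitates were 2.24 times those of the inputs in the geometric mean.

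The highest ratio belonged to ENSRNOG00000018254. In the inputs it had 1.21, 0 and 0 CPM after mock treatment and 0, 0 and 0.299 CPM after PE, 10 counts in all. In the precipitates it had 3.75, 19.7 and 4.09 CPM after mock treatment and 15.3, 12.1 and 8.97 CPM after PE. The gene was thus almost unread in the inputs and low in the precipitates, whose mean of 10.7 ± 6.31 CPM (SD, n = 6) was close to the required 10. Its ratio of 42.4 rested on 1 library, and was 178 without input mock replicate 1. It was 19.1 without the inputs and precipitates numbered mock 2 and PE 1. In the 4 inputs with a count of 0, 3 counts would have stood for 0.606 to 4.04 CPM, the limit that such a count allows for counting error only. The limit of 4.04 CPM, in input mock replicate 3, lies above the lowest precipitate, so at the depth of that library a level as high as 3.75 CPM was not excluded.

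The second highest ratio, 28.7, belonged to ENSRNOG00000007390. Its inputs had 21.7, 31.1 and 1.35 CPM after mock treatment and 32.1, 4.31 and 4.54 CPM after PE. Its precipitates had 133, 1349 and 197 CPM after mock treatment and 544, 456 and 52.9 CPM after PE. The precipitates spread over more than an order of magnitude (455 ± 477 CPM, SD, n = 6), with IP mock replicate 2 the highest. Without that library the ratio was 17.5.

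At the other end of the set, enrichment was small and levels were high. The gene with the highest IP level ranked 129 by ratio, at 2.27: it had 496, 325 and 284 CPM in input mock, 180, 290 and 294 in input PE, 794, 695 and 689 in IP mock, and 932, 574 and 569 in IP PE. The gene with the lowest ratio, ranked 142 at 2.01, had inputs of 30.4 to 113 CPM and precipitates of 121 to 183 CPM. The gene ranked 141, at 2.05, had inputs of 22.6 to 64.6 CPM and precipitates of 72.4 to 115 CPM. For all 3, the inputs came close to the precipitates without reaching them.

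The gap between the groups was narrow for most of the set. The lowest precipitate divided by the highest input ran from 1.003 to 3.84, with a median of 1.22. It was under 1.1 for 21 genes, at least 1.5 for 32 and at least 2 for 8. Exact Poisson 95% intervals of those 2 libraries overlapped for 102 genes and were apart for 40, counting error only. The gene with the widest gap ranked 3 by ratio and had at most 1.45 CPM in any input against 5.56, 5.65 and 5.85 CPM in IP mock and 43.2, 7.39 and 8.97 CPM in IP PE. Its other precipitates, at 5.56 to 8.97 CPM, each lay under the required mean IP level. It therefore met that limit only through IP PE replicate 1. The gene ranked 41 combined a wide gap with even precipitates: its inputs lay between 0.457 and 13.5 CPM and its precipitates between 37.1 and 54.7 CPM.

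Genes just inside the ratio limit had 2.01, 2.05 and 2.06, and those just outside 1.99, 1.99 and 1.98. Mean IP levels just inside were 10.02, 10.7 and 11.1 CPM, and just outside 9.88, 9.30 and 9.27 CPM. For the gap, the values just inside were 1.003, 1.006 and 1.009, and just outside 0.9997, 0.9993 and 0.998. Of the tested genes, 175 were higher in all 6 precipitates than in any input, or 1.67%. The other 33 of these missed the limits on level (12) or ratio (21). A further 864 genes met the limits on level and ratio but had overlapping libraries.

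**Figure D2:**
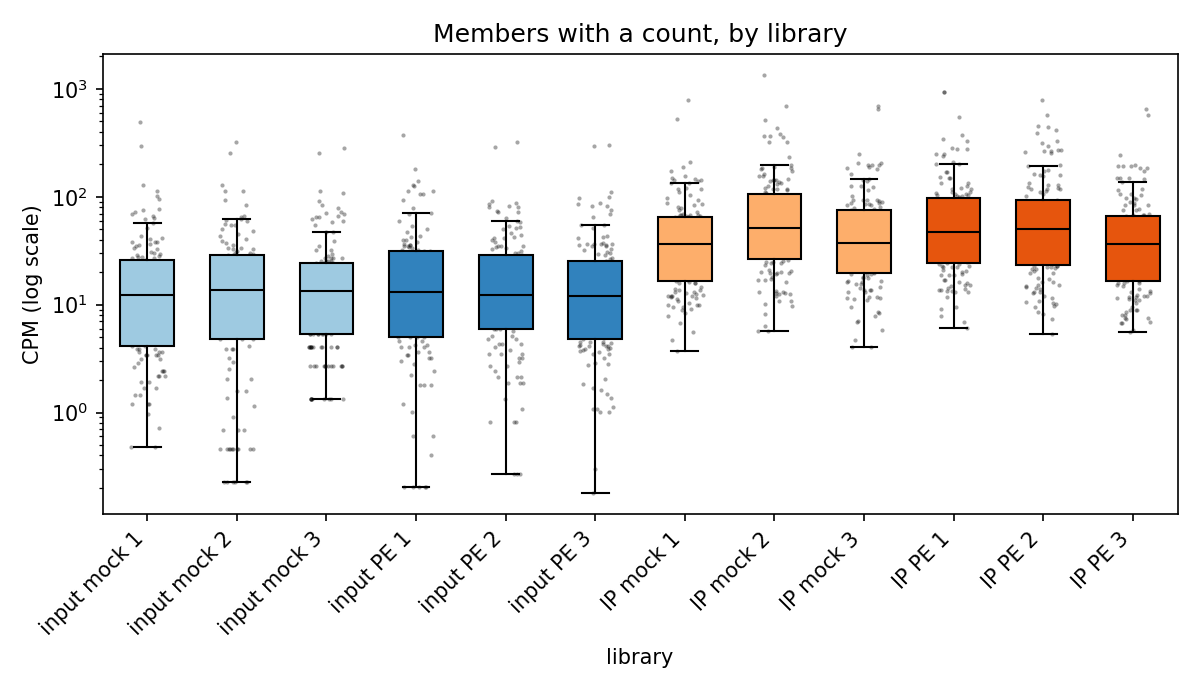
Levels of the 142 selected genes (y axis, CPM, log scale) in each of the 12 libraries (x axis); points are genes, and each box spans the quartiles around the median of the genes with a count. With the genes at 0 included, library medians were 10.2 to 12.1 CPM in inputs and 36.2 to 51.6 CPM in precipitates.

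Spread across the precipitates varied widely between genes. The coefficient of variation (SD divided by mean) over the 6 precipitates ran from 0.0879 to 1.29, with a median of 0.379, against 0.463 for the other genes with at least 10 CPM in IP. The selection reads the lowest precipitate, so this is no independent comparison. The most even gene, with a ratio of 3.02, had 66.0, 67.5 and 68.9 CPM in IP mock and 71.9, 54.9 and 66.8 CPM in IP PE. The least even, with a ratio of 8.06, had 13.2, 156 and 19.8 CPM in IP mock and 31.8, 21.6 and 15.8 CPM in IP PE, so that 1 library held most of its signal.

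The precipitates did not contribute evenly. IP mock replicate 2, IP PE replicate 1 or IP PE replicate 2 was the highest precipitate for 126 of the 142 genes, or 88.7%. The same held for 56.8% of the other genes with at least 10 CPM in IP. They are the libraries that were highest for the most of the 142, with 48, 38 and 40 genes. IP mock replicate 1 was the lowest for 39 (27.5%, against 9.52% of the others). IP PE replicate 3 was the lowest for 42 (29.6%, against 16.8% of the others). The selection reads the precipitate values, so none of these shares is an independent comparison. Among inputs, PE replicate 1 was the highest for the most genes, 34. In 29 genes at least 1 input had no counts.

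Membership also moved with single libraries. Leaving out any 1 library and applying the rule again gave 154 to 246 genes, and 117 of the 142 were kept in all 12 repeats. Each repeat drops 1 library from the condition on overlap, which makes it easier to meet. It was met by 202 to 298 genes, against 175 with all libraries. The filter also kept more genes, 11145 to 11384 against 10491. A rise in number is therefore not by itself a sign of dependence on the library left out. There were 246 genes on leaving out IP PE 3, 235 on leaving out input PE 1 and 231 on leaving out input mock 2. The 25 genes lost at least once had a median gap of 1.12, narrower than that of the 117, but they included the gene with the widest gap, 3.84. Genes were lost by overlap only on leaving out input PE 1, where 5 of the 10 lost failed that condition. In the other repeats every loss was through the limit on mean IP level or on ratio. Without the inputs and precipitates numbered mock 2 and PE 1, an alternative added after the data were seen, the rule gave 472 genes and kept 113 of the 142. With so few libraries the condition on overlap is looser still, and 801 genes met it.

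**Figure D3:**
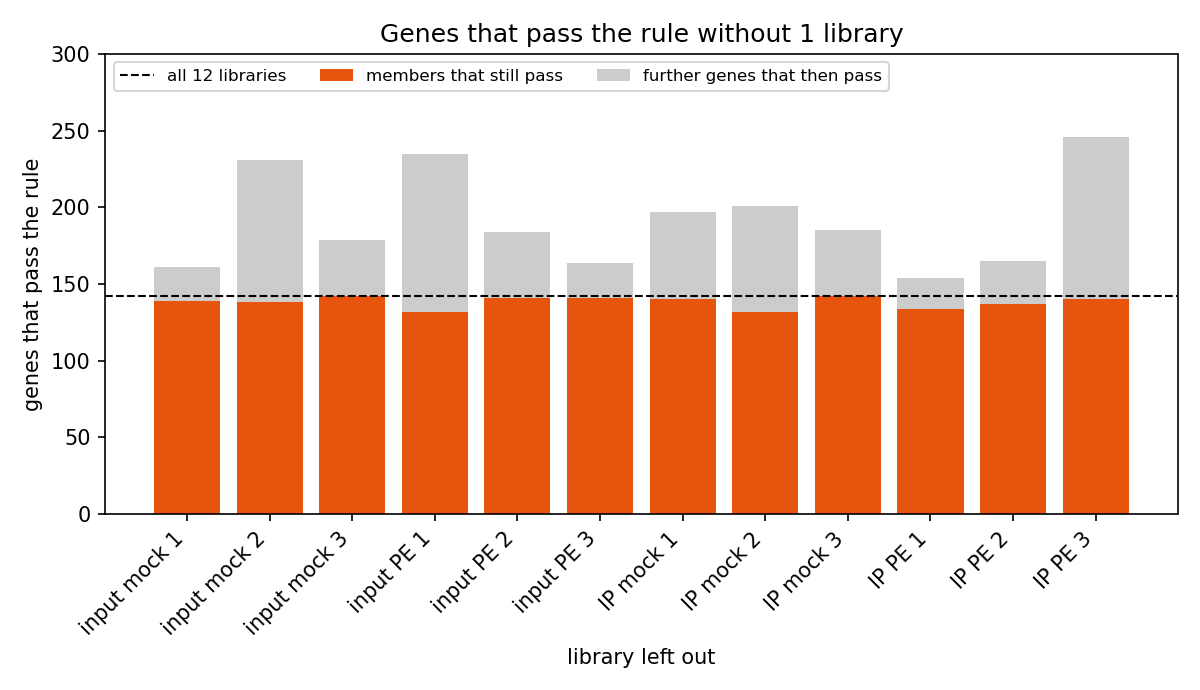
Number of genes meeting the rule (axis in genes) after leaving out each library in turn, split into the original 142 that were kept and genes that newly met it. Totals ran from 154 without IP PE replicate 1 to 246 without IP PE replicate 3.

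The median ratio was 3.55 after mock treatment and 3.52 after PE. It was at least 2 for 131 genes in mock, 132 in PE and 121 in both, and 106 genes had ratios within 2-fold of each other. In edgeR's quasi-likelihood fit over all 10491 genes, 13 of the 142 were higher in IP at an adjusted p under 0.05 in mock, where 0.162% of all genes were called, and 32 in PE, where 0.458% were called. These contrasts share the values used for selection, so nothing is read from the counts. Of the 142, 6 passed in both treatments, 39 in at least 1 and 103 in neither. Over all 10491 genes, 6 passed in both and 59 in at least 1.

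These counts moved with single libraries, and so did the number of all genes called, which was 17 in mock and 48 in PE. On leaving out input mock 1, 2 or 3, the 13 in mock became 0, 5 and 2, and leaving out any of the 3 IP mock libraries gave 1. Leaving out input PE 2 gave 4 and leaving out IP PE 2 gave 8. The calls over all genes in these fits were 0, 11, 2, 1, 4 and 10 in the same order. The 32 in PE became 1 on leaving out input PE 2 and 3 on leaving out input PE 3. They became 7 on leaving out IP PE 1, 0 on leaving out IP PE 2 and 21 on leaving out IP mock 3. Over all genes these fits called 3, 7, 9, 3 and 29.

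Phenylephrine is an agonist of α-adrenergic receptors and is widely used to make cultured cardiomyocytes grow. The PE against mock comparison within the precipitates asked whether the amount of these transcripts in the precipitate changed. None of the 142 passed in edgeR's test, where 0.00953% of all genes were called. At an unadjusted p under 0.05 there were 5 genes, 4 higher and 1 lower, against 5.54% of all genes. DESeq2's Wald test passed 0 of the 142 and 60 of all genes, with 10 of the 142 at an unadjusted p under 0.05, against 6.58% of all genes. It gave no adjusted p for 1 of the 142. The median log2 fold change was 0.12, beside 0.12 over all genes tested and 0.01 over the genes whose mean level reached 10 CPM. Single genes ran from −1.45 to 2.35, and 6.34% of the 142 changed at least 2-fold in either direction. That share was 31.2% over all genes and 17.3% over the genes whose mean level reached 10 CPM. The rule can leave out genes with a large change, so these shares are no independent comparison. The median log2 fold change was 0.39 on leaving out IP mock 2 (0.11 over all genes) and −0.0017 on leaving out IP mock 1 (0.22 over all genes). In DESeq2's Wald fit it was 0.16, beside 0.05 over all genes of the unfiltered table. With DESeq2 size factors on the filtered genes it was 0.16, beside 0.17 over all of them. Without the inputs and precipitates numbered mock 2 and PE 1 it was 0.24, beside 0.05 over all genes. In that fit edgeR's test passed 0 of the 142 and 39 of all genes. At an unadjusted p under 0.05 there were 9 of the 142, against 12.6% of all genes. In these bulk samples, fewer cells of a type and less RNA per cell cannot be told apart.

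All 3 IP PE libraries exceeded all 3 IP mock libraries for 14 of the 142 genes, where 8.61% of all genes did so, and all 3 were lower for 3 genes, where 6.29% did so. The precision was limited. The median 95% interval reached 1.34 to either side on the log2 scale, and 12 genes had an interval that stayed within 2-fold in both directions.

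ENSRNOG00000012733 had the largest increase among those 14. It had 11.5, 5.65 and 4.04 CPM in IP mock and 29.5, 54.4 and 24.2 CPM in IP PE, and its inputs stayed at or under 3.50 CPM. The groups do not overlap, but the log2 fold change of 2.35 (SE 1.16) did not pass edgeR's test (adjusted p = 0.937). ENSRNOG00000060335 had 11.9, 19.6 and 19.0 CPM in IP mock and 68.8, 92.5 and 29.0 CPM in IP PE. Its log2 fold change of 1.91 (SE 0.71) had an adjusted p of 0.756 by edgeR's test. Without the inputs and precipitates numbered mock 2 and PE 1, the changes of these genes were 2.34 and 1.97. Their adjusted p by edgeR's test was then 0.195 and 0.142. ENSRNOG00000060335 was also higher after PE in every input, with 3.38, 0.457 and 2.69 CPM in mock and 10.3, 5.66 and 4.54 CPM in PE. That log2 fold change of 1.71 (SE 0.78), on 166 input counts in all, did not pass edgeR's test after adjustment.

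Of the 3 genes lower in every IP PE library, ENSRNOG00000001890 had 59.9, 115 and 47.9 CPM in IP mock and 46.1, 39.3 and 36.5 CPM in IP PE. Its log2 fold change of −0.87 (SE 0.46) had an adjusted p of 0.977 by edgeR's test, and was −0.41 without IP mock replicate 2. ENSRNOG00000037483 had 36.3, 66.5 and 35.5 CPM in IP mock and 31.4, 29.8 and 23.9 CPM in IP PE. Its log2 fold change of −0.70 (SE 0.59) became −0.34 without the same library. These 4 IDs were singled out after their values were seen.

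**Figure D4:**
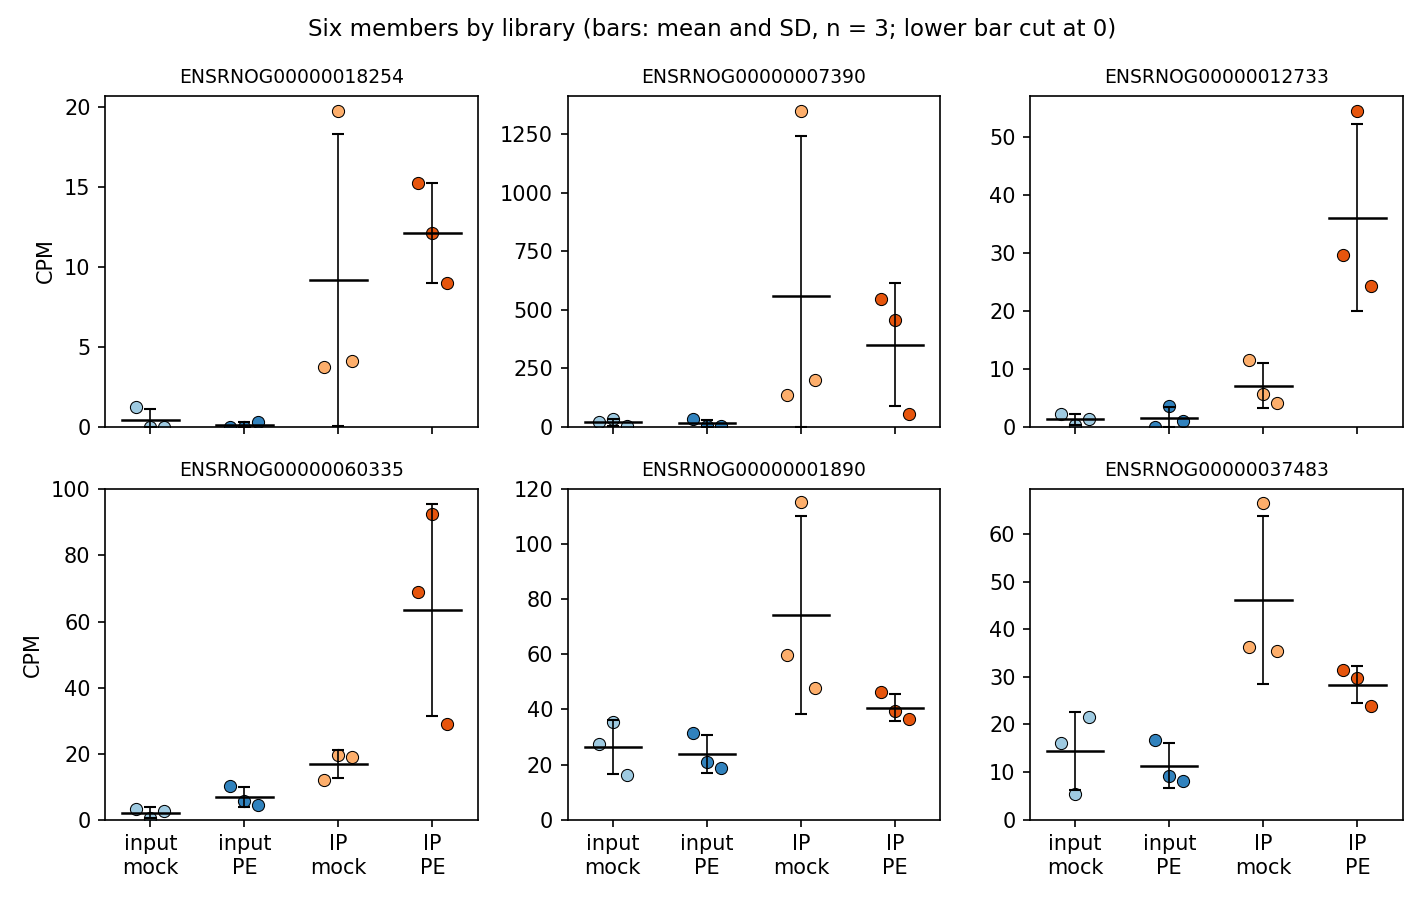
Levels of the 6 named genes (y axis, CPM, linear, scaled per panel) in input mock, input PE, IP mock and IP PE; points are libraries, bars the mean and SD (n = 3, lower bar ended at 0). In each panel the 6 precipitates lie above the 6 inputs, by selection.

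In the inputs, which measure transcript amount in the whole lysate, none of the 142 passed edgeR's test of PE against mock, where 0.00953% of all genes were called. Some of the 142 passed the filter on low counts only through the precipitates: 125 passed it on the 6 inputs alone. At an unadjusted p under 0.05 there were 7, 3 higher and 4 lower, against 3.57% of all genes. DESeq2's Wald test passed 0 of the 142 and 27 of all genes, with 13 of the 142 at an unadjusted p under 0.05, against 4.18% of all genes. Without the inputs and precipitates numbered mock 2 and PE 1, edgeR's test passed 0 of the 142 and 8 of all genes. At an unadjusted p under 0.05 there were then 15 of the 142, against 5.54% of all genes. In edgeR's fit of the 6 inputs alone there was 1 of the 125 tested, against 3.14% of all genes. With all libraries the median log2 fold change was 0.08, beside 0.06 over all genes. Every PE input exceeded every mock input for 9 genes, where 5.67% of all genes did so, and was lower for 10, where 4.18% did so.

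The difference of the 2 IP against input contrasts is built from the values that chose the genes, and the rule leaves out a gene enriched after 1 treatment only. Its values are therefore a description. None of the 142 was called by edgeR, and 0% of all genes were. At an unadjusted p under 0.05 there were 6, 4 with a higher ratio after PE and 2 with a lower one, against 2.58% of all genes. DESeq2's Wald test called 0 of the 142 and 4 of all genes, with 7 of the 142 at an unadjusted p under 0.05, against 3.43% of all genes. The median difference was 0.01 on the log2 scale. The gene with the largest difference, 2.64 (SE 1.08), had 6.28, 6.62 and 16.1 CPM in input mock and 1.21, 0.809 and 3.46 CPM in input PE, while its precipitates had 20.2 to 33.2 CPM in mock and 18.1 to 46.4 CPM in PE. The median 95% interval of the difference reached 1.90 to either side, and for 2 genes it stayed within 2-fold.

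**Figure D5:**
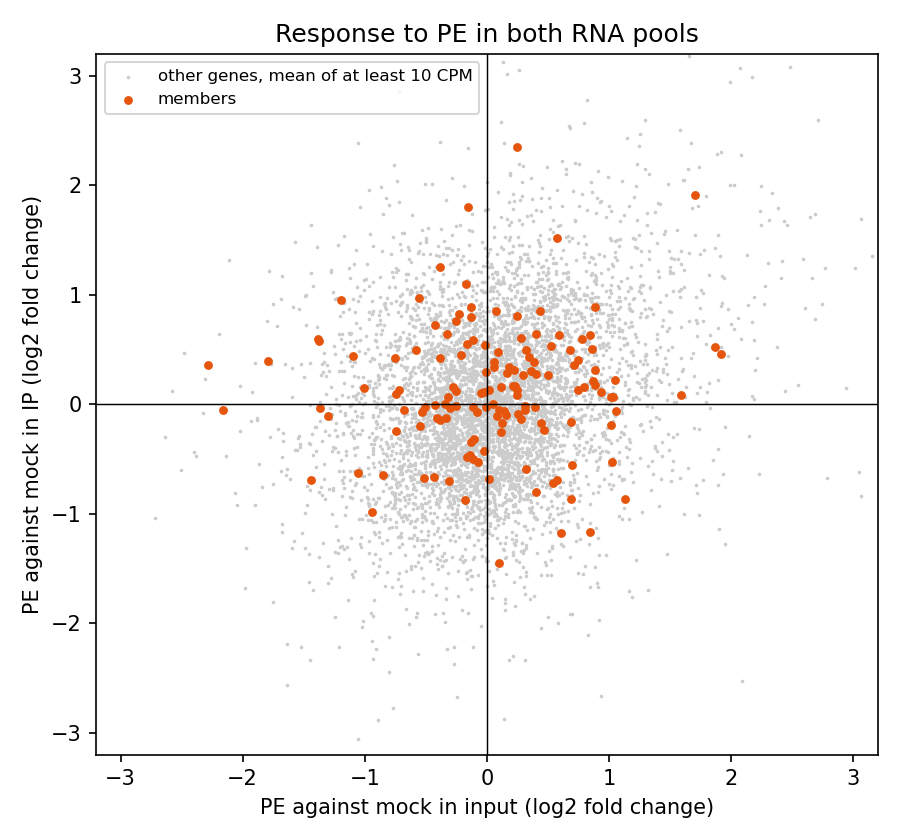
Log2 fold change of PE against mock in the inputs (x axis) and in the precipitates (y axis) for the 142 selected genes and the other genes whose mean level across the 12 libraries reached 10 CPM; 34 of the 5738 other genes lie outside the axes. The selected genes have medians of 0.08 in inputs and 0.12 in precipitates.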

How the data were processed

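The authors deposited 1 table of raw counts per gene for 12 libraries. Per the submitters' processing notes, reads were handled with cutadapt 2.5, STAR 2.7 and featureCounts 1.6.4 on Rnor_6.0, and DESeq2 is also named. The options of these tools were not given in the sources used here. Reads from a 3′ kit come from transcript ends, so counts do not scale with length, and genes with similar ends may share them.

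Counts were filtered with filterByExpr, scaled by TMM and fitted in edgeR 4.0.16 (R 4.3.3) with 1 mean per group over the 12 libraries and the robust quasi-likelihood F-test. Benjamini-Hochberg adjustment ran over all 10491 genes, with a threshold of 0.05. The alternatives used library totals, DESeq2 1.42.0, other filters, a replicate block and fewer libraries. DESeq2's Wald test ran on the unfiltered table with its default independent filtering, and its shares of all genes are over the 15207 with a p-value. In each of its contrasts 1 of the 142 genes had no adjusted p and could not be called. The scripts were tested on simulated data.

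The members and lists were chosen with earlier results of these data known. The gene lists needed symbols and could not be applied. The rule named the 2 highest and 2 lowest ratios by ID. The 2 lowest are given here by rank, and 4 IDs from the PE comparison were added after their values were seen.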

Additional observations from a re-analysis of the deposited data

How the results depend on the processing

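No alternative gave a call among the 142 genes for PE against mock in inputs, in precipitates or for the difference in enrichment. These stayed at 0, although the fit of the 6 input libraries tested only 125 of the 142. The Wald test gave no adjusted p for 1 of the 142. The calls for IP against input moved. The 13 in mock (17 of all genes) were 112 with library totals (842 of all), 35 with no filter (156), 40 without the 4 libraries numbered mock 2 and PE 1 (168), 0 with only the 6 libraries of the comparison (0), 54 with DESeq2's Wald test (148) and 0 to 15 on leaving out 1 library (0 to 20). The 32 in PE (48 of all genes) were 108 with library totals (641), 61 without the 4 libraries (352), 9 with the 6 libraries (18), 75 with the Wald test (229) and 0 to 44 on leaving out 1 library (3 to 82). The cause was not tested.

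The deposited column names give the input and the IP of the same treatment and number a shared letter. The labels do not say that such libraries came from the same lysate, and the main fit did not pair them. Deviations of same-numbered input and IP correlated at 0.246, 0.284 and 0.183 in mock and 0.281, 0.0157 and 0.321 in PE. All libraries but input mock 3, input PE 2 and IP PE 2 correlated best with their own number. With a replicate block within treatment the calls were 28 in mock (95 of all genes) and 38 in PE (128).

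The number of genes meeting the rule was 1287 with library totals, 61 at a ratio of 4, 472 without the 4 libraries and 154 to 246 on leaving out 1 library. The settings with fewer libraries also loosen the condition on overlap. The median log2 change in inputs was 0.34 with library totals, which moved the median of all genes to 0.31. The median in precipitates ran from −0.00168 to 0.39 on leaving out 1 library.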
